A study of Mus musculus with 16 samples.

Results

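A set of 10 genes of protein folding and stress signalling in the endoplasmic reticulum (ER) was examined in mouse rotator cuff muscle, unoperated or after a surgical tear with nerve injury, in a pair of inbred strains. The 10 genes were Atf4, Atf6, Xbp1, Hspa5, Hsp90b1, Calr, Canx, Pdia3, Pdia4 and Pdia6. They were chosen by symbol, with no measured value in the rule, from a table of RNA-seq read counts for 11710 genes. Earlier results of these data were known when they were chosen. All 10 were in the table, and all 10 were among the 11709 genes tested.

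The ER is the compartment in which secreted and membrane proteins are folded. When unfolded proteins build up there, cells switch on the unfolded protein response, which starts from sensors in the ER membrane. PERK slows protein synthesis and favours translation of ATF4, IRE1 splices the Xbp1 transcript into an active form, and ATF6 is cut in the Golgi to release a transcription factor. The targets of the response include the folding machinery itself: the chaperones BiP (Hspa5) and Hsp90b1, the glycoprotein-binding chaperones calreticulin (Calr) and calnexin (Canx), and the protein disulfide isomerases (PDIs), which form and rearrange disulfide bonds. In muscle, the sarcoplasmic reticulum is a specialised part of the ER that stores calcium, and several of these chaperones bind calcium. Gene counts measure total transcript of each gene. They do not separate spliced from unspliced Xbp1, and they do not report translation of ATF4 or cutting of ATF6.

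The groups were C57BL/6J (BL6) unoperated, BL6 operated, MRL/MpJ (MRL) unoperated and MRL operated, with 4 samples each. MRL/MpJ is an inbred strain studied for its capacity to regenerate some tissues. Operated muscles had undergone tenectomy, which is removal of tendon, together with denervation, so the effects of the tendon and the nerve lesion cannot be told apart. The muscle is the infraspinatus in the series' design text and the supraspinatus in the labels of the samples. Both belong to the rotator cuff, and the tissue is called rotator cuff muscle here. Age, sex, time after surgery and whether each sample came from its own animal are not given in the sources used here. P-values therefore measure the spread between these samples, which may be partly technical.

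ERSE, the ER stress response element, is the best known DNA motif of this pathway. It is bound by ATF6 together with NF-Y, and it was searched as CCAAT, 9 bases of any kind and CCACG, on both strands, from 250 bases before to 50 bases after each RefSeq gene start (GRCm38.p6). It was found in 39 of 32841 such windows, or 0.119%. Of the 9 members with a window, 5 held it, namely Hspa5, Hsp90b1, Calr, Canx and Pdia6. Both the motif and the members were taken from what is known of this pathway, so this share is not a test. The windows of Atf4, Xbp1, Pdia3 and Pdia4 did not hold these letters. Only exact matches in these windows were searched, so a variant of the motif or a site farther away would be missed. The grouping of genes is by these letters alone. The matches are shown because they divide the folding genes by promoter sequence, and capitals mark the fixed letters of the motif, read in the motif's own direction:
Hspa5: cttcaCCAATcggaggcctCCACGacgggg
Hsp90b1 distal: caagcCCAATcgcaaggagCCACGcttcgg
Hsp90b1 proximal: aactcaCCAATcgtgcctcaCCACGcactc
Calr: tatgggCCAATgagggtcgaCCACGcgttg
Canx: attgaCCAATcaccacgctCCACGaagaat
Pdia6: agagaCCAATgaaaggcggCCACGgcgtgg

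Distances are from the RefSeq start. The Hspa5 match began 65 bases before it (30 bases shown, chr2:34772020-34772049, plus strand). The GENCODE gene given below starts farther upstream, so this match lies inside that gene, while the other matches lie outside their GENCODE genes. The Hsp90b1 matches began 212 bases before the start (chr10:86705632-86705661, minus strand) and 107 bases before it (chr10:86705527-86705556, plus strand). That of Calr began at 162 bases (chr8:84847069-84847098, plus strand), that of Canx at 145 bases (chr11:50325794-50325823, minus strand) and that of Pdia6 at 98 bases (chr12:17266486-17266515, plus strand). Other motifs, 3 in all, were searched in the same way and matched in 0 of the 9 windows. They were the second ER stress element, which is ATTGG, 1 base of any kind and CCACG, present in 0.0365% of all windows, the unfolded protein response element TGACGTGG, in 0.676%, and the amino acid response element TGATGCAAT, in 0.192%. A match is a description of the letters in these windows and not a bound site.

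Read counts summed to between 24323862 and 43552964 per sample, and the lowest count of any member in any sample was 411, so none was near the limit of detection. Levels are given as CPM, a gene's count relative to the total of its sample, scaled between samples with edgeR's TMM factors. No pair of samples within a group agreed within sampling noise. All 12 muscle fibre markers examined were in the table, and their summed level was 56465 to 181740 CPM over the 16 samples. BL6 operated replicate 4 and MRL unoperated replicate 1 stood apart from the rest of their groups on the first principal component. Several results that rest on them are given with and without them, while counts of markers are given with all samples only. BL6 operated replicate 2 had the lowest score of its group on that component, 16.7, where the others were at 44.6, 51.0 and 86.1. Its muscle fibre marker sum, 150888 CPM, lay inside the unoperated BL6 range of 135080 to 181740 CPM. Mitochondrially encoded genes took 11.0% to 14.2% of the counts in unoperated muscle and 17.4% to 24.9% in 7 of the 8 operated samples. MRL operated replicate 4, the remaining one, had 11.8%.

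In operated muscle the 3 PDI transcripts rose in BL6 and in MRL, Atf6 fell in both, and calreticulin rose in BL6. Hspa5, the transcript most often used as a readout of the unfolded protein response, did not pass the test in either strain, and its mean level was lower after surgery in both. In BL6, 4 of the 10 genes rose, 1 fell and 5 did not pass an adjusted p of 0.05 (edgeR, quasi-likelihood). In the same comparison 67.9% of all tested genes were called, 35.1% as higher and 32.8% as lower, so the share of members called was not above the background. In MRL, 3 rose, 1 fell and 6 did not pass, where 45% of all genes were called, 22.3% as higher and 22.7% as lower. The operated and unoperated samples did not overlap for 2 members in BL6, against 56.8% of all genes, and for 4 in MRL, against 33.7%. The median log2 fold change of the 10 members was 0.30 in BL6 and 0.24 in MRL, beside 0.04 and 0.01 over all tested genes.

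**Figure D1:**
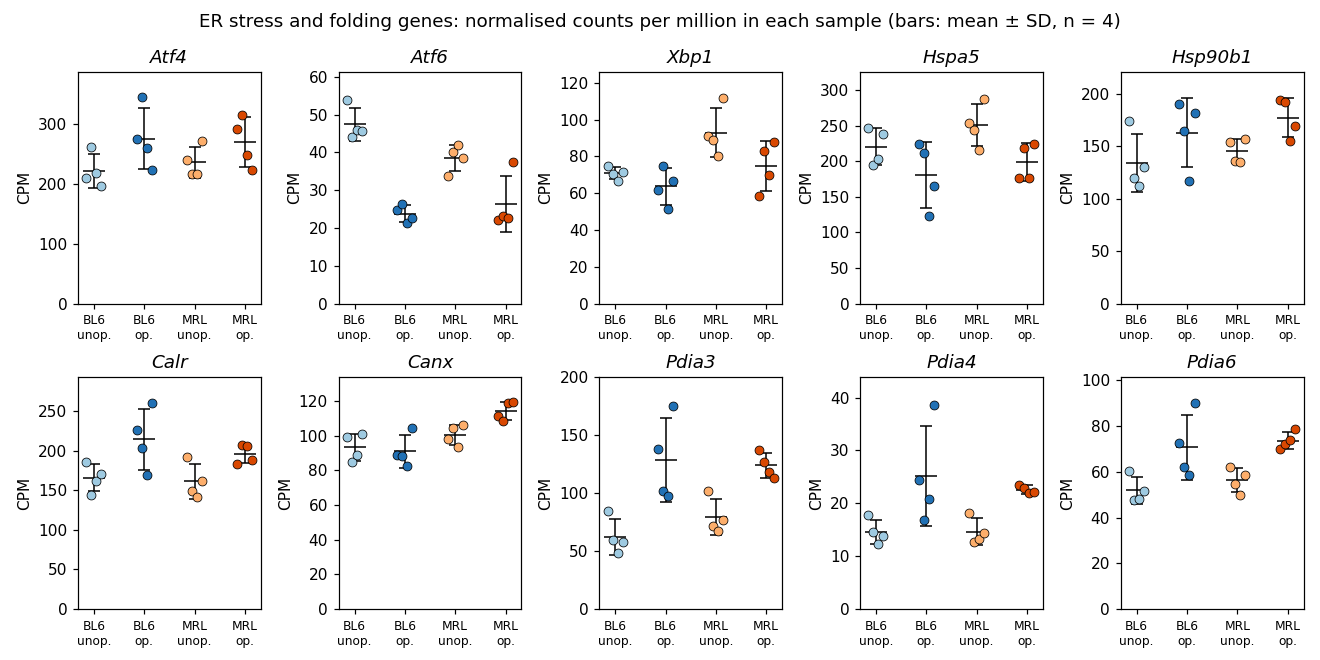
Level of each of the 10 genes in CPM (linear axis from 0) in the 4 groups. Points are single samples, ordered from replicate 1 to 4 within a group, and bars are the mean ± SD of 4 samples. Pdia3 lies higher in every operated sample than in every unoperated sample of the same strain, and Atf6 lies at 21.3 to 26.5 CPM in operated BL6 muscle against 43.99 to 54.0 in unoperated.

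The PDIs showed the largest fitted increases of the 10 genes in both strains. Pdia3 (chr2:121413775-121438687, GRCm38, plus strand) encodes the isomerase that works with calnexin and calreticulin on glycoproteins. Its level was 84.7, 59.2, 48.2 and 57.7 CPM in the 4 unoperated BL6 samples and 138, 102, 97.8 and 175 CPM in the operated ones. No operated sample overlapped the unoperated group. The fitted change was 1.04 on the log2 scale (SE 0.20, edgeR adjusted p = 0.00042), a fold of 2.05. In MRL the levels were 102, 71.6, 67.5 and 77.0 CPM unoperated and 138, 127, 118 and 113 CPM operated, again without overlap, and the change was 0.64 (SE 0.20, edgeR adjusted p = 0.018). Unoperated replicate 1 was the highest of its group in both strains.

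Pdia4 (chr6:47796141-47813430, minus strand) encodes an isomerase with an additional thioredoxin-like domain and was the least abundant of the PDIs studied. Unoperated BL6 samples held 17.7, 14.5, 12.3 and 13.9 CPM and operated ones 24.5, 16.9, 20.9 and 38.6 CPM. Operated replicate 2 lay below unoperated replicate 1, and operated replicate 4 stood well above the others. The change was 0.79 (SE 0.20, edgeR adjusted p = 0.00282). Without operated replicate 4 it was 0.50, with an adjusted p of 0.00914. In MRL, Pdia4 was at 18.2, 12.8, 13.3 and 14.3 CPM unoperated and at 23.5, 22.9, 21.9 and 22.1 CPM operated. These groups did not overlap, the operated samples lay close together (SD 0.775 CPM, n = 4), and the change was 0.63 (SE 0.20, edgeR adjusted p = 0.0203).

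Pdia6 (chr12:17266545-17284770, plus strand) encodes an isomerase that associates with BiP, and it is the PDI whose promoter window held the ERSE letters shown above. Its level in BL6 went from 60.2, 47.8, 48.1 and 51.7 CPM to 72.6, 62.1, 58.6 and 90.05 CPM. The groups overlapped through unoperated replicate 1 and operated replicate 3, and the change was 0.45 (SE 0.13, edgeR adjusted p = 0.00608). In MRL the levels were 62.2, 54.8, 50.1 and 58.8 CPM and then 70.0, 72.1, 73.9 and 78.8 CPM, without overlap, and the change was 0.38 (SE 0.13, edgeR adjusted p = 0.024). Pdia3 and Pdia4, whose windows did not hold these exact letters, had larger fitted changes than Pdia6 in both strains, and these differences between genes were not tested.

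The 3 PDI calls in BL6 held under all 25 alternative analyses, and without BL6 operated replicate 4 the changes were 0.84 for Pdia3 and 0.31 for Pdia6. The calls in MRL were closer to the threshold. Scaling by total counts alone gave adjusted p values of 0.0553 for Pdia3, 0.0765 for Pdia4 and 0.0965 for Pdia6. Leaving out unoperated MRL replicate 2 gave 0.0531, 0.0613 and 0.0606, and leaving out replicate 3 gave 0.0592, 0.0602 and 0.0822. Pdia4 also missed it without unoperated replicate 4 (0.0508) and Pdia6 without operated replicate 3 (0.0534). Over all 25 alternatives the fitted MRL changes of the 3 genes lay between 0.33 and 0.79.

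Markers of non-muscle cells also differed between operated and unoperated muscle, in part in the same samples as the PDIs. In bulk muscle, more cells of a type and more RNA per cell cannot be told apart. The summed level of 10 fibroblast and fibro-adipogenic progenitor markers was 720 to 1727 CPM in unoperated BL6 and 1198 to 8003 CPM in operated BL6, where 7 of the 10 rose. It was 1543 to 2768 CPM in unoperated MRL and 2037 to 4134 CPM in operated MRL, where 1 of the 10 rose. The highest sum among the operated BL6 samples, 8003 CPM, was in replicate 4, which also had the highest Pdia3, Pdia4, Pdia6, Calr and Canx of its group, and the highest unoperated MRL sum was in replicate 1, which had the highest Pdia3, Pdia4, Pdia6 and Calr of its own. Unoperated BL6 had its highest sum, 1727 CPM, in replicate 1, which also had the highest Pdia3, Pdia4, Pdia6 and Calr of its group. In operated MRL the highest sum was in replicate 3, which had the lowest Pdia4 of its group and ranked 3 of 4 for Pdia3. Its Pdia6, at 73.9 CPM, was exceeded only by that of replicate 4, at 78.8 CPM. The 10 macrophage and leukocyte markers summed to 48.6 to 176 CPM in unoperated and 113 to 740 CPM in operated BL6, where 7 of the 10 rose, and to 97.9 to 422 CPM and 172 to 328 CPM in MRL, where 1 rose. Without BL6 operated replicate 4 and MRL unoperated replicate 1, Pdia3 changed by 0.84 in BL6 and 0.79 in MRL, and Pdia4 by 0.50 and 0.76. The part of these cell types in the PDI result was not tested.

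The lectin chaperones, which bind sugar-bearing proteins during folding, behaved differently from each other. Calr (chr8:84841850-84846934, minus strand) encodes calreticulin, the soluble form and a calcium store of the ER. It was at 186, 145, 162 and 171 CPM in unoperated BL6 and at 226, 203, 169 and 260.4 CPM in operated BL6. Operated replicate 3 lay within the unoperated range and the other 3 lay above it. The change was 0.37 (SE 0.14, edgeR adjusted p = 0.0245). This call was lost under 6 of the 25 alternatives: without unoperated replicate 2 (0.0776) or 3 (0.0532), without operated replicate 1 (0.0569) or 4 (change 0.26, adjusted p 0.0974), without both samples that stood apart (0.0738), and with the 2 BL6 groups fitted alone (0.071). In MRL, Calr was at 192, 150, 142 and 162 CPM and then 183, 207, 206 and 189 CPM, and the change of 0.28 did not pass (SE 0.14, edgeR adjusted p = 0.102). Without unoperated MRL replicate 1 it was 0.38, with an adjusted p of 0.0408.

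Canx (chr11:50293961-50325673, minus strand) encodes calnexin, the membrane-bound lectin chaperone. Unoperated BL6 samples were at 99.1, 84.8, 89.0 and 101 CPM and operated ones at 88.7, 88.4, 82.4 and 105 CPM. The groups overlapped over most of their range, and the fitted change was -0.04 (SE 0.10, edgeR adjusted p = 0.743), which turned to 0.12 when samples were scaled by total counts alone. In MRL, Canx was at 97.9, 104, 93.6 and 106 CPM unoperated and 111, 109, 119 and 119 CPM operated. All 4 operated MRL samples lay above all 4 unoperated ones, but the change of 0.19 did not pass the test (SE 0.10, edgeR adjusted p = 0.12).

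Hspa5 (chr2:34771970-34777547, plus strand) encodes BiP, the Hsp70 chaperone of the ER, which also binds the sensors. Its levels in unoperated BL6 were 247, 194, 203 and 238 CPM and in operated BL6 223, 211, 123 and 166 CPM. The 2 highest operated samples lay inside the unoperated range and the 2 lowest below it. The change was -0.29 (SE 0.17, edgeR adjusted p = 0.145). In MRL the levels were 253, 244, 216 and 287 CPM and then 177, 219, 176 and 224 CPM, with a change of -0.33 (SE 0.17, edgeR adjusted p = 0.119). Neither strain gave a call for Hspa5 under any of the 25 alternatives, and the fitted value was below 0 under every one.

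Hsp90b1 (chr10:86690209-86705509, minus strand) encodes the Hsp90 chaperone of the ER, whose clients include integrins and Toll-like receptors. It was at 174, 120.3, 112 and 131 CPM in unoperated BL6 and at 189.9, 165, 117 and 181 CPM in operated BL6, a change of 0.28 (SE 0.16, edgeR adjusted p = 0.131). In MRL the levels were 155, 136, 135 and 157 CPM and then 194, 192, 155 and 169 CPM, also a change of 0.28 (SE 0.16, edgeR adjusted p = 0.155). Only the lowest operated MRL sample reached into the unoperated range. In BL6 the value passed when unoperated replicate 1 (0.43, adjusted p 0.0241) or operated replicate 3 (0.41, adjusted p 0.0246) was left out. Hsp90b1 shares 415 exonic bases with 1810014B01Rik on the opposite strand. Whether the authors' counting used strand is not given in the sources used here, so reads there may be split, and that gene stood at 19.3 to 24.3 CPM in the group means.

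Among the transcription factors, Atf6 fell. Atf6 (chr1:170704674-170867771, minus strand) encodes the sensor that is itself cut into a transcription factor for the folding genes. It was at 54.0, 43.99, 46.0 and 45.6 CPM in unoperated BL6 and at 24.8, 26.5, 21.3 and 22.6 CPM in operated BL6. The groups did not overlap, and Atf6 fell by 0.99 on the log2 scale (SE 0.15, edgeR adjusted p = 7.22e-05), a fold of 0.502 that held under all 25 alternatives. In MRL it was at 33.8, 40.0, 41.9 and 38.5 CPM and then at 22.1, 23.1, 22.6 and 37.5 CPM. Of the operated samples, 3 lay below the unoperated range and replicate 4 lay inside it. Atf6 fell by 0.55 in MRL (SE 0.15, edgeR adjusted p = 0.00982), by 0.77 without operated replicate 4 (adjusted p 5.3e-05), and by 0.48 with total-count scaling, where the call was lost (adjusted p 0.0518).

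Atf4 (chr15:80255184-80257541, plus strand) encodes the transcription factor of the PERK branch and of the wider integrated stress response, and is regulated largely in translation. It was at 210, 262, 218 and 196 CPM in unoperated BL6 and at 274, 344, 259 and 223 CPM in operated BL6. The change of 0.31 did not pass (SE 0.15, edgeR adjusted p = 0.0799). It passed with total-count scaling (0.41, adjusted p 0.00943), without unoperated replicate 2 (0.40, adjusted p 0.0413), without operated replicate 4 (0.39, adjusted p 0.0289) and without both samples that stood apart (adjusted p 0.034). In MRL, Atf4 was at 240, 216, 216 and 271 CPM and then 292, 315, 248 and 223 CPM, with a change of 0.19 (SE 0.15, edgeR adjusted p = 0.303).

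Xbp1 (chr11:5520659-5525893, plus strand) encodes the transcription factor that IRE1 activates by splicing. It was at 74.7, 70.6, 66.6 and 71.6 CPM in unoperated BL6 and at 61.8, 74.96, 51.4 and 66.9 CPM in operated BL6, a change of -0.15 (SE 0.14, edgeR adjusted p = 0.351). In MRL the levels were 91.2, 88.8, 80.02 and 111 CPM and then 58.2, 82.8, 70.2 and 88.0 CPM. The MRL change of -0.31 did not pass (SE 0.14, edgeR adjusted p = 0.0837), and without operated replicate 4 it was -0.40 with an adjusted p of 0.032.

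**Figure D2:**
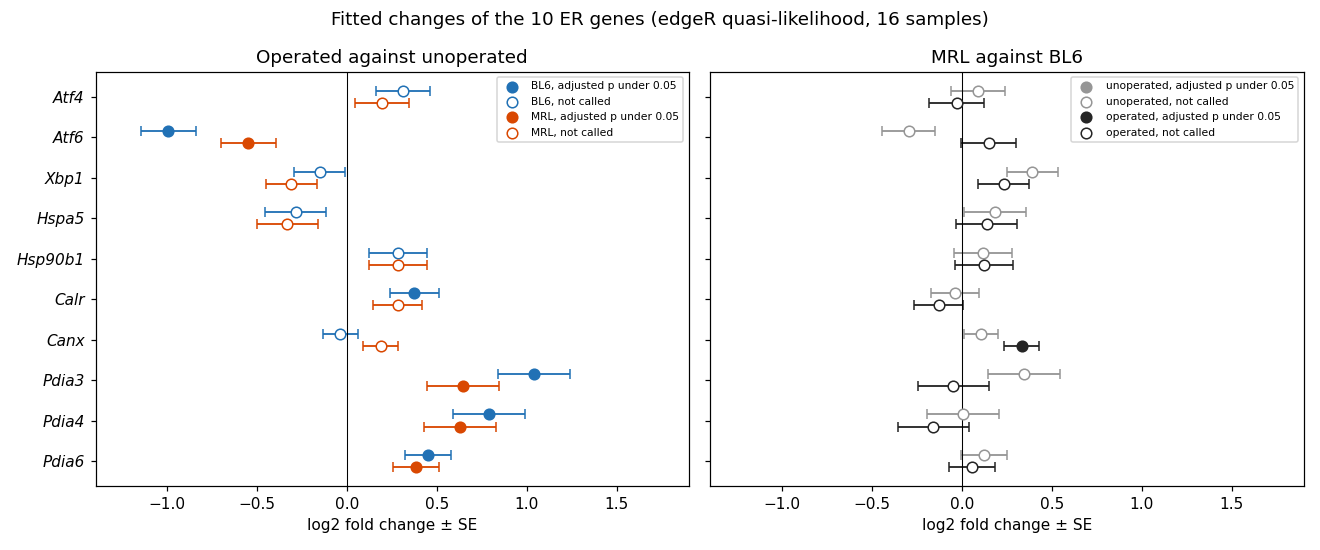
Fitted log2 fold change ± SE of the 10 genes, for surgery within each strain (left) and for MRL against BL6 within each condition (right). Filled points passed an adjusted p of 0.05. In the left panel the PDIs lie right of 0 and Atf6 left of it in both strains, and in the right panel only Canx in operated muscle is filled.

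In unoperated muscle 0 of the 10 members were called between MRL and BL6 by edgeR, where 10.4% of all tested genes were, and 1 member had an unadjusted p below 0.05. That member was Xbp1, at 66.6 to 74.7 CPM in BL6 and 80.02 to 111 CPM in MRL. All 4 MRL samples lay above all 4 BL6 samples, with a difference of 0.39 (SE 0.14, unadjusted p = 0.0148, edgeR adjusted p = 0.1). Atf6 showed the opposite order without overlap, at 43.99 to 54.0 CPM in BL6 and 33.8 to 41.9 CPM in MRL, and its difference of -0.30 did not pass (SE 0.15, edgeR adjusted p = 0.24). Groups without overlap made up 25.1% of all tested genes here. Fitted on the unoperated samples alone, both passed, with an adjusted p of 0.0242 for Xbp1 and 0.045 for Atf6, in a fit that called 2438 genes instead of 1216. Atf6 also passed when MRL operated replicate 4 was left out of the shared fit (adjusted p 0.0371).

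In operated muscle 1 of the 10 members was called, where 12.9% of all tested genes were. Canx was higher in MRL, at 109 to 119 CPM against 82.4 to 105 CPM in BL6, without overlap (13.6% of all genes had none), and differed by 0.33 (SE 0.10, edgeR adjusted p = 0.0335). The difference lay between 0.29 and 0.41 under the 25 alternatives, but the call was lost in 10 of them, with adjusted p values up to 0.188. These 10 were scaling by total counts, the fit of the operated groups alone, and leaving out BL6 operated replicate 1, 2 or 3, MRL unoperated replicate 1 or 4, or MRL operated replicate 1, 3 or 4. The other 9 members gave differences from -0.16 for Pdia4 to 0.23 for Xbp1. Values of Pdia3 in the operated groups were close, with means of 128 CPM (SD 36.3, n = 4) in BL6 and 124 CPM (SD 10.7, n = 4) in MRL, although the fitted surgery effect was larger in BL6. The strain and surgery comparisons share samples, so these values are not independent of each other.

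Whether surgery acted differently in the strains was tested directly with the interaction of strain and surgery. None of the 10 members passed in edgeR, 0 had an unadjusted p below 0.05, and DESeq2 also called 0. Over all tested genes 0.248% were called. The largest interaction terms were 0.45 for Atf6 (SE 0.21, unadjusted p = 0.0527, edgeR adjusted p = 0.321), which is a smaller fall in MRL, and -0.40 for Pdia3 (SE 0.28, edgeR adjusted p = 0.478), which is a smaller rise in MRL. With SEs of 0.14 to 0.28, moderate differences between the strains in the surgery effect may not have been detectable.

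**Figure D3:**
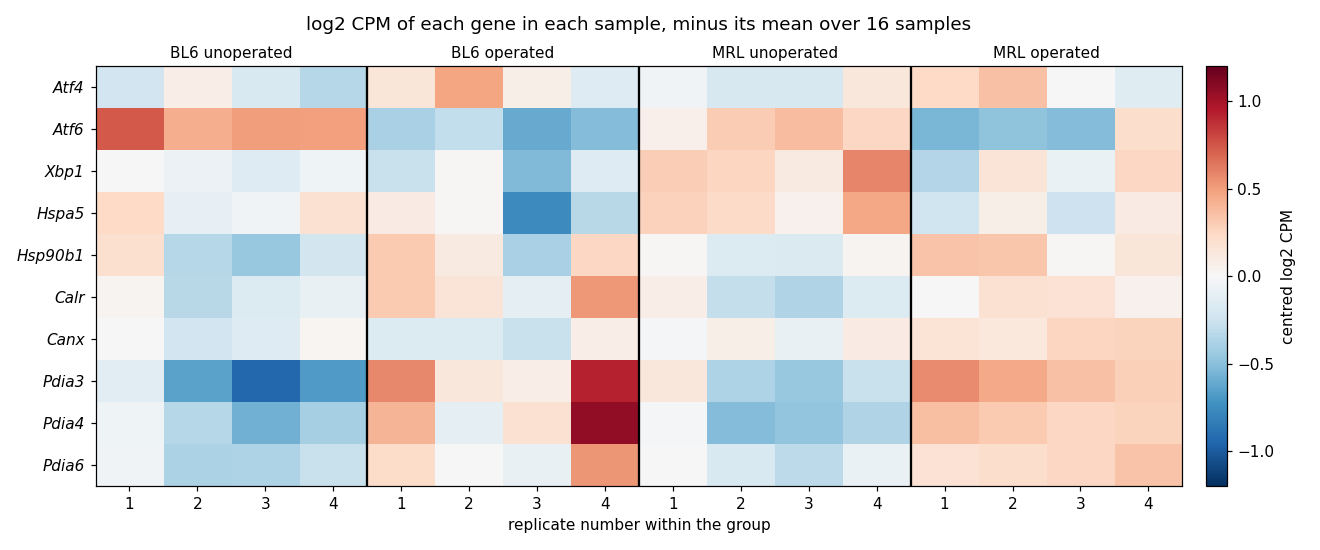
Heat map of log2 CPM for the 10 genes (rows) in the 16 samples (columns, by group and replicate), each gene centred on its mean over all samples. Red is above and blue below that mean on a scale from -1.2 to 1.2. The PDI rows go mostly from blue to red with surgery, the Atf6 row goes the other way except in MRL operated replicate 4, and BL6 operated replicate 3 is the lowest of its group in 8 of the 10 rows.

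Levels of the different members were compared per kilobase of exon (CPM per kb). Atf4 stood highest in every group, with means of 128 CPM per kb (SD 16.5, n = 4) without and 159 with surgery in BL6, and 137 and 156 in MRL. Calr was next in all 4 groups, at 73.9 to 98.3 CPM per kb. In unoperated muscle of both strains Hspa5 followed, at 58.7 in BL6 and 66.7 in MRL, ahead of Hsp90b1 at 47.5 and 51.6, with overlapping samples in BL6 and not in MRL. After surgery the group means of Hsp90b1, 57.8 and 62.8 CPM per kb, stood above those of Hspa5, 48.1 and 52.9, although the samples of these neighbours overlapped. Pdia3 stood at rank 7 in unoperated BL6 at 22.5 CPM per kb, overlapping Pdia6 and Canx, and at rank 5 in operated BL6 at 46.3, overlapping Hspa5. At the low end, Atf6 and Pdia4 overlapped in unoperated muscle, at 6.54 and 6.08 CPM per kb in BL6 and 5.32 and 6.11 in MRL. In operated muscle Pdia4 (10.5 and 9.42) and Atf6 (3.28 and 3.63) no longer overlapped.

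The balance between a PDI and BiP moved in every operated sample. The ratio of Pdia3 to Hspa5, each per kilobase, was 0.465, 0.413, 0.322 and 0.329 in unoperated BL6 and 0.837, 0.653, 1.08 and 1.44 in operated BL6. It was 0.543, 0.397, 0.424 and 0.363 in unoperated MRL and 1.06, 0.787, 0.912 and 0.686 in operated MRL. The lowest operated ratio of either strain was above the highest unoperated one. This ratio was chosen after the values were seen and was not tested. It does not depend on the scaling between samples.

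Genes with profiles most like that of Hspa5 were found over the 16 samples, with the mean absolute difference between log2 CPM profiles, each centred on its own mean. Of 11206 genes compared, the nearest were Nup50 (difference 0.119), Coq10b (0.124), Cstf2t (0.125), Slk (0.128) and Rab1a (0.129), where the median over all genes was 0.362. Nup50 encodes a nuclear pore protein, and Rab1a encodes a small GTPase of transport from the ER to the Golgi. Xbp1 ranked 10, with a difference of 0.133. The other members were farther, from Canx at rank 2714 (0.256) and Hsp90b1 at 4218 (0.303) to Pdia4 at 8023 (0.522) and Pdia3 at 8650 (0.584). Pdia6 (0.370, rank 5844), Pdia4 and Pdia3 were farther from Hspa5 than the median gene. The 16 samples share the groups and the scaling, so this likeness is a description.

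The wider pathway was read from 8 lists that hold 139 other ER genes, of which 129 were in the table. In BL6, 54 rose and 33 fell, so that 67.4% were called, where 67.9% of all tested genes were. In MRL, 22 rose and 30 fell, or 40.3% against 45%. The median change of the listed genes was 0.19 in BL6 and 0.03 in MRL, beside 0.04 and 0.01 over all genes. Strain differences were called for 17 of the 129 in unoperated muscle (13.2%, against 10.4% of all genes) and for 21 in operated muscle (16.3% against 12.9%). In the interaction test 0 of the 129 passed in edgeR, and DESeq2 called 3.

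**Figure D4:**
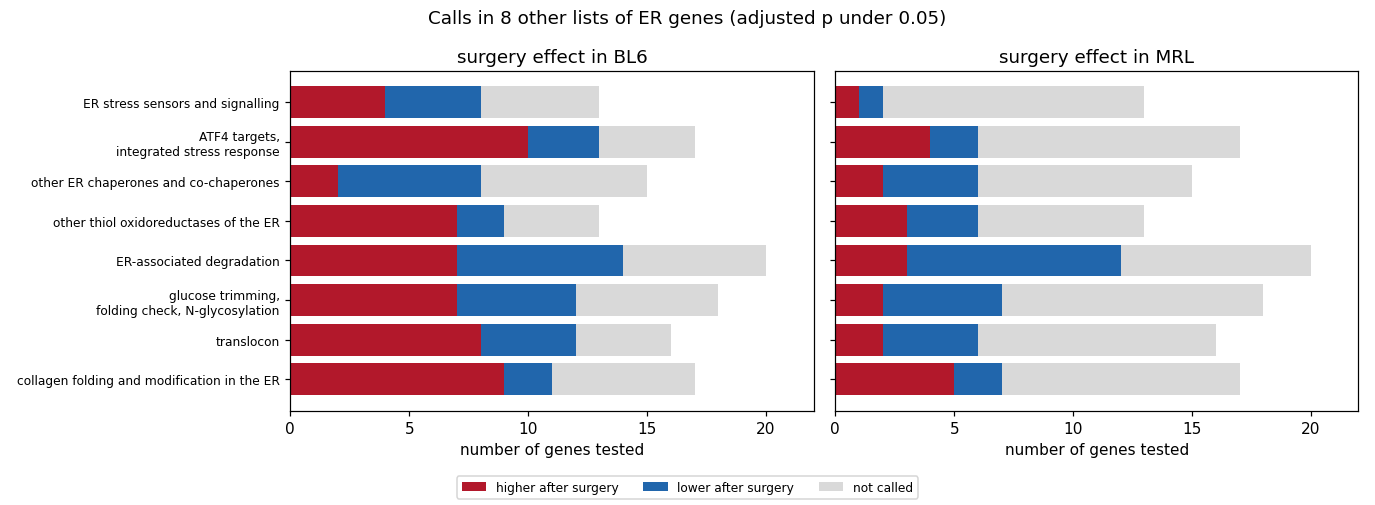
Number of genes in each of 8 lists of other ER genes that were higher (red), lower (blue) or not called (grey) after surgery, in BL6 (left) and MRL (right), at an adjusted p of 0.05. The ATF4 target and collagen folding lists hold mostly red among their called genes, and the list of other chaperones holds more blue than red in both strains.

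Of 13 genes for sensors and signalling, 4 rose and 4 fell in BL6 (median 0.02), or 61.5% called against 67.9% of all tested genes. In MRL 1 rose and 1 fell (median -0.11), or 15.4% against 45%. Up to 3 of the genes with the highest mean CPM, not adjusted for length, are named for each list. Wfs1, an ER membrane protein lost in Wolfram syndrome, fell by 0.50 in BL6 (edgeR adjusted p = 0.0217) and had a change of -0.37 in MRL (adjusted p 0.0994), which passed at -0.61 without operated replicate 4 (adjusted p 0.00256). The BL6 call was lost under 5 alternatives, among them leaving out unoperated replicate 3 or 4 or operated replicate 4. Mbtps1, the protease that makes the first cut in ATF6, had changes of 0.02 and 0.04, and Ppp1r15a, which restores protein synthesis, had changes of 0.23 and -0.10. Neither passed in either strain.

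The ATF4 target list had 17 of its 21 genes in the table. In BL6 10 rose and 3 fell (median 0.78), or 76.5% called against 67.9% of all tested genes. In MRL 4 rose and 2 fell (median 0.30), or 35.3% against 45%. Atf5, a related transcription factor, rose by 1.14 in BL6 and 0.72 in MRL (edgeR adjusted p = 9.69e-06 and 0.000902). Vldlr, a lipoprotein receptor, fell by 1.41 in each strain (adjusted p 0.000484 and 0.00212). Chac1, which degrades glutathione, fell by 2.50 and 1.69 (adjusted p 0.00169 and 0.0261), and its MRL call was lost without unoperated replicate 2 or operated replicate 1, 2 or 3. Ddit3 and Trib3, named after their values were seen, encode the stress factor CHOP and a pseudokinase. Ddit3 was at 20.3 ± 1.63 CPM in unoperated and 57.8 ± 9.01 CPM in operated BL6 (SD, n = 4), a rise of 1.51 (edgeR adjusted p = 9.97e-05). In MRL it was at 36.5 ± 13.02 and 57.1 ± 17.8 CPM, a rise of 0.65 (edgeR adjusted p = 0.0362) that was lost under 9 alternatives, among them leaving out any of unoperated replicates 1 to 3 or operated replicates 1 to 3. Trib3 rose by 1.19 in BL6 (adjusted p 0.0239, lost at 0.0728 without unoperated replicate 4) and by 1.78 in MRL (adjusted p 0.00585).

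Of 15 other ER chaperones and co-chaperones, 2 rose and 6 fell in BL6 (median -0.11), so that 53.3% were called against 67.9% of all genes. In MRL 2 rose and 4 fell (median -0.06), or 40% against 45%, and the balance of directions was not tested. The 3 with the highest mean CPM, Sdf2, Creld1 and Dnajb11, did not pass in either strain. Their changes were 0.18, -0.11 and 0.16 in BL6 and -0.08, -0.06 and 0.13 in MRL. In BL6, Sdf2 passed with total-count scaling (0.30, adjusted p 0.0187), and Dnajb11 passed with it (0.29, adjusted p 0.0374) and in DESeq2 (adjusted p 0.0311). A pair of others, named after their values were seen, moved in opposite directions. Dnajb9, a BiP co-chaperone, fell from 37.0 to 21.003 CPM in BL6 and from 47.3 to 32.3 CPM in MRL, by 0.82 and 0.55 (edgeR adjusted p = 0.000317 and 0.0102). Creld2, a secreted ER protein, went from 6.56 to 11.5 CPM and from 7.14 to 10.6 CPM, a rise of 0.81 and 0.57 (adjusted p 0.000281 and 0.00782). Both kept their calls under all 25 alternatives. The promoter window of Creld2 held the ERSE letters and that of Dnajb9 did not. Dnajc3 of this list and Syvn1 of the degradation list also held them. Among the members, Hspa5, Hsp90b1 and Canx held them and did not pass for surgery in either strain. Pdia6 held them and rose in both strains, and Calr held them and passed in BL6 only. Pdia3, Pdia4 and Sec61b rose in both strains without them. Whether the letters go with the changes was not tested.

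Of 13 further thiol oxidoreductases, 7 rose and 2 fell in BL6 (median 0.28), or 69.2% called against 67.9% of all tested genes. In MRL 3 rose and 3 fell (median 0.07), or 46.2% against 45%. P4hb, the founding PDI and a subunit of prolyl 4-hydroxylase, rose by 0.40 in BL6 (edgeR adjusted p = 0.0184), by 0.21 without operated replicate 4 (adjusted p 0.0834), and had a change of 0.07 in MRL (adjusted p 0.669). Txndc5 had a change of -0.14 in BL6 (adjusted p 0.461), which was -0.40 without operated replicate 4 (adjusted p 0.00319), and fell by 0.60 in MRL (adjusted p 0.0084, lost at 0.0923 with total-count scaling). Erp44, which returns escaped proteins to the ER, had a change of -0.19 in BL6 (adjusted p 0.0863, passing at 0.0398 without operated replicate 2) and fell by 0.37 in MRL (adjusted p 0.00607).

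Degradation of misfolded ER proteins was represented by 20 genes. In BL6 7 rose and 7 fell (median -0.16), or 70% called against 67.9% of all tested genes. In MRL 3 rose and 9 fell (median -0.20), or 60% against 45%. Herpud1, a strongly stress-induced organiser of the degradation complex, had changes of -0.37 and -0.23 that did not pass (edgeR adjusted p 0.0663 and 0.274). The BL6 change passed without BL6 operated replicate 2 (-0.52, adjusted p 0.0112), without MRL operated replicate 4 (adjusted p 0.0481) and with a replicate block (adjusted p 0.0276). Ube2g2, a ubiquitin-conjugating enzyme, rose by 0.33 in BL6 (adjusted p 0.0237, lost without unoperated replicate 2 or operated replicate 1) and had a change of 0.20 in MRL (adjusted p 0.177).

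Sugar trimming and attachment, the step that produces the ligands of calnexin and calreticulin, had 7 of 18 genes up and 5 down in BL6 (median 0.18). That was 66.7% called, against 67.9% of all tested genes. In MRL 2 rose and 5 fell (median 0.00), or 38.9% against 45%. Stt3b, a catalytic subunit of the oligosaccharyltransferase, fell by 0.48 in each strain (edgeR adjusted p = 0.0018 and 0.00519). Rpn1 and Rpn2, other subunits of that complex, had changes of 0.03 and 0.21 in BL6 and -0.23 and 0.01 in MRL. Of these only Rpn2 in BL6 passed (adjusted p 0.0453), and that call was lost under 17 of the 25 alternatives. Rpn1 in MRL (adjusted p 0.0558) passed under 6 of the 25, among them DESeq2 (adjusted p 0.0123) and leaving out MRL unoperated replicate 3 (adjusted p 0.0369) or BL6 operated replicate 2 (0.0432) or 4 (0.046). The translocon, which moves new proteins into the ER, had 8 of 16 genes up and 4 down in BL6 (median 0.12), or 75% called. In MRL 2 rose and 4 fell (median -0.03), or 37.5% called. Ssr3 fell by 0.66 and 0.53 (adjusted p 0.000547 and 0.00665), while Ssr1 and Spcs1 did not pass, with changes of -0.07 and -0.10 in BL6 and -0.15 and -0.12 in MRL. Spcs1 passed in BL6 without operated replicate 2 (-0.29, adjusted p 0.00727), and Ssr1 passed in MRL in DESeq2 (adjusted p 0.0205). Sec61b, a subunit of the channel named after its values were seen, rose by 1.13 and 0.73 (adjusted p 5.17e-05 and 0.00403).

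Collagen folding and modification in the ER, where PDIs and prolyl hydroxylases act on procollagen, had 9 of 17 genes up and 2 down in BL6 (median 0.74). That was 64.7% called, against 67.9% of all tested genes. In MRL 5 rose and 2 fell (median 0.51), or 41.2% against 45%. Serpinh1, the collagen chaperone HSP47, rose by 1.85 in BL6 and 1.29 in MRL (edgeR adjusted p = 0.000256 and 0.00723). In operated BL6 it was at 283, 171, 199 and 507 CPM. Leaving out 1 sample at a time gave a BL6 change of 1.43 to 2.21. Plod1, a lysyl hydroxylase, rose by 0.74 and 0.51 (adjusted p 0.000113 and 0.00455). Colgalt1, which adds galactose to collagen, fell by 0.32 and 0.33 (adjusted p 0.0143 and 0.0184). With total-count scaling its calls were lost in both strains (0.458 and 0.222), and they were also lost without BL6 operated replicate 1 and, in MRL, without unoperated replicate 2 or operated replicate 1 or 2. Of the 10 fibroblast markers given above, 7 rose in BL6 and 1 in MRL. Both Serpinh1 and the fibroblast sum were highest in replicate 4 among operated BL6 samples. Among operated MRL samples Serpinh1 was highest in replicate 2, at 222 CPM, and the fibroblast sum in replicate 3. The part of these cells in the changes of this list was not tested.

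Other cell types also differed between operated and unoperated muscle. Adipocyte markers, 6 of the 7 examined, rose in both strains, from a summed 222 to 309 CPM in unoperated BL6 to 1298 to 2255 CPM in operated BL6, and from 272 to 396 CPM to 1383 to 2007 CPM in MRL. Fabp4 made up most of these sums, with means of 238 CPM unoperated and 1319 CPM operated in BL6. Its means in MRL were 302 and 1444 CPM. Among operated MRL samples Fabp4 was lowest in replicate 4, at 903 CPM. Adipoq (85.1 CPM), Plin1 (50.4), Cidec (47.9) and Cfd (281) were highest in that sample. The sums in operated MRL therefore follow Fabp4 and not these other adipocyte markers. Endothelial markers rose in 5 of 6 and 6 of 6, Schwann cell markers in 6 of 6 and 5 of 6, and pericyte and smooth muscle markers in 6 of 6 and 5 of 6, in BL6 and MRL. Of 12 muscle fibre markers 6 fell in BL6 and 3 in MRL, with summed levels of 135080 to 181740 CPM against 56465 to 150888 CPM in BL6, and 124315 to 137948 CPM against 78111 to 102179 CPM in MRL. Plasma cells carry very large amounts of ER, but of 8 B cell and plasma cell markers only 1, Sdc1, was in the table. Their number could not be read from it alone. Sdc1 rose in both strains, from 1.43 to 3.27 CPM over the unoperated samples to 3.29 to 18.7 CPM over the operated ones. Its highest operated values were in BL6 replicate 4 and MRL replicate 3, which also had the highest fibroblast marker sums of their groups. The part of these cells in the changes of the 10 members was not tested.

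In the authors' deposited table of fold changes, 9 of the 10 members had the same call as here in each surgery comparison and 10 of 10 in each strain comparison. The exception was Calr. In the authors' deposited table its log2 fold change was 0.27 in BL6 with an FDR of 0.0525, and 0.38 in MRL with an FDR of 0.0127. That is the reverse of the calls made here, where Calr passed in BL6 and not in MRL. In the authors' deposited table Pdia3 was at 0.87 in BL6 and 0.80 in MRL, Pdia4 at 0.57 and 0.81, and Atf6 at -0.95 and -0.59.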

How the data were processed

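RNA-seq of 16 muscle samples was analysed. Per the file headers, the authors deposited raw read counts per gene, and a table of log2 fold changes with p-values and FDR for their comparisons. The submitters' processing notes name FastQC, STAR, edgeR and mm10. The counting program, annotation and strand setting are not given in the sources used here, nor is any batch.

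Counts were tested with edgeR 4.0.16 (R 4.3.3): genes passing filterByExpr (minimum count 10) were kept, scaled by TMM, and fitted by quasi-likelihood with 1 mean per group over all 16 samples, so that the 4 groups share one estimate of spread. P-values were adjusted by Benjamini-Hochberg over all 11709 tested genes and called at 0.05. There were 5 comparisons: surgery in each strain, strain in each condition, and their interaction. CPM are TMM-scaled, and the log2 CPM used for profiles have a prior count of 2. Coordinates and exon lengths come from GENCODE M21, and promoter sequences from RefSeq (GRCm38.p6), matched by symbol, with a window for 9 of 10 members. A limit of 3 counts corresponds to 0.0689 to 0.123 CPM and covers counting error only. Alternatives used DESeq2 1.42.0, limma 3.58.1, other scalings and filters, a replicate block and samples left out.

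The members and all gene lists were chosen with earlier results of these data known. Named were all 10 members and, of each other list, the 3 genes with the highest mean CPM, plus the 5 genes most like Hspa5. Ddit3, Trib3, Dnajb9, Creld2 and Sec61b fall outside that rule, and 1 gene that it names is not reported here. Of the T cell marker list 0 of 5 genes were in the table, and of satellite cell markers 4 of 6, of which 1 rose and 3 fell in BL6 and 1 rose and 2 fell in MRL. All 3 tenocyte markers in the table rose in BL6 and 0 in MRL.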

Additional observations from a re-analysis of the deposited data

Results flagged for a closer look

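Atf6 in operated MRL muscle held 1 sample far from the others of its group. Replicate 4 was at 37.5 CPM, and the other 3 samples were at 22.1, 23.1 and 22.6 CPM. The gap exceeded Dixon's 95% critical value for 4 samples, which chance exceeds in about 1 in 20 groups. All 10 members were screened in each of the 4 groups, so more than 1 such gap could arise by chance. The same sample had the lowest mitochondrial share of counts among the operated samples (11.8%). The surgery effect on Atf6 in MRL was -0.55 with this sample and -0.77 without it, with edgeR adjusted p values of 0.00982 and 5.3e-05. The cause was not tested.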

How the results depend on the processing

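The 25 alternatives (24 for the interaction) comprised other scalings, filters and tools, fits of the compared groups alone, a replicate block, and samples left out. Of 50 member results, 22 kept direction and call in all of them and 16 changed sign in at least 1; of 58 surgery results for other named pathway genes these numbers were 33 and 8. None of the results that changed sign was called. The causes below were not tested.

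Leaving out 1 sample at a time gave 1 to 5 members called for surgery in MRL (1 without unoperated replicate 2 or 3), 33 to 65 listed pathway genes and 3490 to 6145 of all genes (main values 4, 52 and 5272; the lowest pathway and all-gene counts without operated replicate 3). For strain in unoperated muscle it gave 0 to 1, 10 to 23 and 821 to 1572 (main 0, 17 and 1216), in operated muscle 0 to 1, 14 to 26 and 1030 to 1842 (main 1, 21 and 1507), and for the interaction 1 to 69 of all genes (main 29, highest without BL6 operated replicate 2). For surgery in BL6 the counts stayed at 4 to 6 members.

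Scaling by total counts alone shifted the median of all genes by 0.14 for surgery in BL6 and called 0 members and 30 listed genes for surgery in MRL, 0 members and 12 listed genes for strain in operated muscle, and 14 genes for the interaction. It called 742 genes higher and 313 lower for strain in unoperated muscle (588 and 628 with TMM), and 994 and 383 in operated muscle (890 and 617). It turned the sign of Canx (0.12), Txndc5 (0.064), Ssr1 (0.066) and Spcs1 (0.0053) in BL6, Creld1 (0.00065) in MRL, Calr (0.10) between unoperated strains, Atf4 (0.048) between operated strains and Hsp90b1 (-0.084) in the interaction. The groups compared alone gave 2 members, 32 listed genes and 2438 genes for strain in unoperated muscle, and 0, 7 and 575 in operated muscle. DESeq2 called 250 genes and 3 listed genes for the interaction. DESeq2 and its size factors gave -0.010 for Hsp90b1 there. Without mitochondrial genes Pdia4 between unoperated strains was -0.012. Voom gave -0.0074 for Mbtps1 in BL6 and 0.0042 for Pdia3 between operated strains, and the BL6 groups alone gave -0.0018 for Mbtps1.

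Without both samples that stood apart, Mbtps1 was -0.14 in BL6, Pdia4 -0.13 between unoperated strains, Pdia3 0.14 and Pdia4 0.12 between operated strains, and Calr 0.12, Pdia4 0.25 and Pdia6 0.14 in the interaction. With 1 sample left out, sign changes occurred within these ranges. In BL6 they were -0.12 to 0.0077 for Canx, -0.14 to 0.11 for Mbtps1 and -0.018 to 0.060 for Rpn1. In MRL they were -0.21 to 0.0059 for Ppp1r15a, -0.15 to 0.013 for Creld1 and -0.024 to 0.087 for Rpn2. Between unoperated strains they were -0.14 to 0.013 for Calr and -0.13 to 0.10 for Pdia4. Between operated strains they were -0.12 to 0.10 for Atf4, -0.082 to 0.22 for Atf6, -0.0085 to 0.26 for Hspa5, -0.0091 to 0.20 for Hsp90b1, -0.16 to 0.14 for Pdia3, -0.31 to 0.12 for Pdia4 and -0.024 to 0.20 for Pdia6. In the interaction they were -0.21 to 0.0075 for Atf4, -0.19 to 0.073 for Hspa5, -0.15 to 0.084 for Hsp90b1, -0.19 to 0.023 for Calr, -0.31 to 0.12 for Pdia4 and -0.14 to 0.082 for Pdia6.

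Same-numbered samples had mean correlations of -0.14 (BL6), 0.09 (MRL), 0.16 (unoperated strains) and 0.16 (operated strains), with single pairs from -0.47 to 0.45. Not every pair exceeded 0.1, so the numbers were not taken to pair samples. With the replicate block the interaction called 2 genes, 1 in each direction, and of the members only Xbp1 in MRL changed its call (-0.31, adjusted p just under 0.05).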
